A study of Mus musculus with 16 samples.

Results

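The heat shock and cold-inducible genes described here are 9 of the 57186 genes in the count table, picked by symbol. They are the chaperones Hspa8, Hsph1, Hsp90aa1, Dnajb1, Hspa1a, Hspa1b and Hspb1 and the RNA-binding proteins Cirbp and Rbm3. They were set library by library beside Bmal1, an activator of the circadian clock. All 9 passed the minimum of 100 estimated counts over the 16 libraries, as did 25408 genes in all. RNA came from whole kidneys of 16 male mice on the C57BL/6J background, with 4 libraries in each of 4 labelled groups. Every group was Elmo1H/H, which raises the expression of Elmo1, so no group had normal Elmo1. The non-diabetic mice were Elmo1H/H Ins2+/+, either untreated (ND_C) or given vitamin B12 (ND_B12). The diabetic mice were Elmo1H/H Ins2Akita/+, written Ins2A/+ in the labels, again untreated (D_C) or given B12 (D_B12). The Akita allele encodes a misfolded insulin that kills beta cells, so it models insulin deficiency. B12 was given in drinking water at 10 mg/kg/day from the age of 8 weeks, and the mice were 16 weeks old at collection by the methods, which makes 8 weeks of treatment where the labels give 16 weeks. Kidneys were collected between ZT7 and ZT9, hours counted from lights on, after 3 to 4 h without food.

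Heat shock proteins hold unfolded proteins in a soluble state and help them to refold. Their genes are switched on by the factor Hsf1, which binds repeats of GAA and TTC, and many of them follow the daily rhythm of body temperature in peripheral organs. Cirbp and Rbm3 respond the opposite way, since mild cooling raises their RNA, for Cirbp largely through splicing. Bmal1 and its partner Clock drive the Per, Cry and Nr1d genes, whose products in turn repress them.

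Some facts of the libraries bear on every result below. The dates that begin the library names run in order through the groups, and D_C and D_B12 share none of them, nor do ND_C and D_C or ND_B12 and D_B12, so in these comparisons date and group cannot be told apart. The group means of clock genes in the supplementary data of the study did not match the labelled groups. Those means matched, in the 4 columns, other sets of 4 libraries, and only the D_B12 libraries stayed together, under the heading of untreated diabetic mice. By that match 5 libraries sat in the group of their label and 11 in another one. The groups below are those of the labels and were not changed, and directions between groups rest on those labels. The comparison with Bmal1 uses no group label in its main fit, but it is not free of group or date. All D_C libraries were low and all D_B12 libraries high in Bmal1. Total estimated counts ran from 65271308 to 91771136. The 6 kidney markers (Lrp2, Slc34a1, Umod, Slc12a3, Aqp2, Nphs1) summed to between 876840 and 1123391 normalized counts in every library, where a normalized count is a count scaled by its library's median-of-ratios size factor. Aqp2, a small part of these sums, ran from 4054 to 27158, so the sums do not show how evenly each marker was held. The 3 adipocyte markers (Adipoq, Plin1, Cidec) summed to 10.9 to 4190 normalized counts, with wide ranges in each of the 4 groups. The adrenal genes Cyp11b1 and Cyp11b2 were at 0 in all libraries, while Star, also on the adrenal list, ran from 286 to 544 normalized counts. In whole kidney, fewer cells of a type and less RNA per cell cannot be told apart.

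On GRCm39 the genes lie at chr9:40711630-40731039 (Hspa8), chr5:149537636-149560156 (Hsph1), chr12:110656842-110669166 (Hsp90aa1), chr8:84334811-84339820 (Dnajb1), chr17:35188166-35191132 (Hspa1a), chr17:35175412-35178214 (Hspa1b), chr5:135916760-135918417 (Hspb1), chr10:79997069-80008626 (Cirbp), chrX:8004213-8012119 (Rbm3) and chr7:112806152-112914735 (Bmal1). Noncoding genes are annotated on the opposite strand of all of them except Dnajb1, Hspa1b and Hspb1. Upstream sequences show how alike Hspa1a and Hspa1b are and whether the exact letters GAANNTTC or TTCNNGAA, repeats of the kind that Hsf1 binds, are there. RefSeq promoters of GRCm38.p6 were found for 6 of the 9 members and placed on GRCm39 by exact match. In lower case, 5′ to 3′ on the strand of the gene, with GAANNTTC or TTCNNGAA in capitals (each reads the same on both strands), the bases before the annotated start of 4 genes are shown, with 30 bases around the match for Hsph1, whose window lies inside an annotated longer transcript.
Hspa1a: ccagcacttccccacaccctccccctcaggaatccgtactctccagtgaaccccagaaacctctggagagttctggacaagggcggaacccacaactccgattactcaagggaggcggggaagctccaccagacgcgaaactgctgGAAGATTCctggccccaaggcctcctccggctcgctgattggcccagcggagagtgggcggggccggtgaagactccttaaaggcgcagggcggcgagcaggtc
Hspa1b: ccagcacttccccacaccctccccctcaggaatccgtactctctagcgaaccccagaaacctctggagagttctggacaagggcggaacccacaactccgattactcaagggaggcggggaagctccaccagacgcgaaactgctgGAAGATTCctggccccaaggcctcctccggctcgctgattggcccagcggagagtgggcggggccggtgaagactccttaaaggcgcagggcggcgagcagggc
Hspb1: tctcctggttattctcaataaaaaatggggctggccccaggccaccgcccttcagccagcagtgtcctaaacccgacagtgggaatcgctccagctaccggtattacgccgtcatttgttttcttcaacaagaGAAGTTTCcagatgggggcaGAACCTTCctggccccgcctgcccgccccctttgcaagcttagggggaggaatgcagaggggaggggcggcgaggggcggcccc
Dnajb1: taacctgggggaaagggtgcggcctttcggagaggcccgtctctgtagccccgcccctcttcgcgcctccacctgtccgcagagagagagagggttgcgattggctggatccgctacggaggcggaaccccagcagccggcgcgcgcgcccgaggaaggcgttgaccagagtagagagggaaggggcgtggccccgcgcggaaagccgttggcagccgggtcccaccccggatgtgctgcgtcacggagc
Hsph1: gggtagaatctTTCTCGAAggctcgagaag

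These stretches lie at chr17:35191133-35191382 for Hspa1a and chr17:35178215-35178464 for Hspa1b, both on the minus strand. They lie at chr5:135916523-135916759 on the plus strand for Hspb1, at chr8:84334554-84334803 on the plus strand for Dnajb1 and at chr5:149559816-149559845 on the minus strand for Hsph1. The Hspa1a and Hspa1b stretches were the same at 247 of 250 bases, and both hold GAAGATTC starting 104 bases before the RefSeq start. Hspb1 holds GAAGTTTC and GAACCTTC, starting 117 and 97 bases before it. Hsph1 holds TTCTCGAA in both of its RefSeq windows. The E-box CACGTG, the letters that Bmal1 and Clock read, lies outside the bases shown. It is in the Hsph1 window at chr5:149559781-149560030 and not in that at chr5:149559802-149560051. Dnajb1 and Cirbp hold no exact match to either heat shock pattern in any of their 250-base windows, and looser matches were not searched. Either heat shock pattern occurred in 12.8% of 32851 promoter windows of 250 bases, and the E-box in 6.02%.

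Bmal1 split the libraries into a low and a high set of 8. Its normalized counts were 1115, 513, 727 and 324 in ND_C, 1063, 254, 244 and 226 in ND_B12, 269, 241, 230 and 324 in D_C and 1017, 923, 567 and 692 in D_B12. The low libraries thus ran from 226 to 324 and the high ones from 513 to 1115. The high set held all of D_B12, 3 libraries of ND_C and ND_B12 1.

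Over the 16 libraries, chaperone RNA was higher and Cirbp RNA lower where Bmal1 was higher. In edgeR's quasi-likelihood fit with Bmal1 as a covariate, with Benjamini-Hochberg adjustment over all genes, 6 of the 9 members were called, 5 rising and 1 falling with Bmal1, where 2.44% of 25407 genes were called, 1.37% rising and 1.07% falling. The members and the lists below were chosen with earlier results of these data known, so their counts beside these shares are a description. Hspa1a and Hspa1b, whose reads cannot be separated with confidence, both count among the 5 rising. The members' median slope was 0.28 log2 units per log2 unit of Bmal1, against -0.00197 over all genes. The largest slopes belonged to Hspa1a and Hspa1b, the stress-inducible Hsp70 genes, and Dnajb1, their Hsp40 co-chaperone, had the smallest adjusted p.

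Dnajb1 had normalized counts of 4747, 3038, 3174 and 1842 in ND_C, 3663, 2102, 1944 and 1631 in ND_B12, 1679, 1854, 1596 and 1811 in D_C and 3414, 3669, 1591 and 1826 in D_B12. It reached 3038 or more in the libraries ND_C 1 to 3, ND_B12 1 and D_B12 1 and 2, and stayed at or under 2102 in the other 10, among them D_B12 3 and 4, which were high in Bmal1. Its slope was 0.51 ± 0.076 (SE; edgeR adjusted p = 0.0039). Pearson's r with Bmal1 was 0.823 and Spearman's rho 0.7.

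Hspa1a, made in little amount without stress, had the largest ratio of highest to lowest library after its copy Hspa1b (15.0-fold and 17.0-fold). Its normalized counts were 11864, 2862, 2269 and 1057 in ND_C, 4429, 1820, 990 and 1166 in ND_B12, 2290, 2240, 1501 and 2112 in D_C and 4680, 5271, 793 and 909 in D_B12. The highest library was ND_C 1 and the lowest were D_B12 3 and 4, which again went against their Bmal1. The slope was 0.86 ± 0.19 (edgeR adjusted p = 0.0233). Hspa1b, with 853 to 14466 normalized counts, gave 0.83 ± 0.21 (edgeR adjusted p = 0.0407). The 2 genes cannot be separated with confidence, since 58.8% of the 50-base words in Hspa1a transcripts also occur in Hspa1b transcripts, and reads of 50 bases were counted.

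Hsph1, an Hsp110 that exchanges nucleotide on Hsp70, had normalized counts of 17005, 12956, 10714 and 9362 in ND_C, 16358, 9718, 8543 and 8136 in ND_B12, 9520, 10791, 8769 and 10296 in D_C and 14459, 14926, 8479 and 8198 in D_B12. Its 4 highest libraries were ND_C 1, ND_B12 1 and D_B12 1 and 2, which were also the 4 highest in Bmal1. The slope was 0.32 ± 0.063 (edgeR adjusted p = 0.0141).

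Hspa8, the constitutive Hsp70 and the most abundant member, had normalized counts of 136146, 131111, 130660 and 91510 in ND_C, 154767, 93225, 88790 and 103586 in ND_B12, 81652, 92778, 76337 and 92086 in D_C and 127335, 133440, 71445 and 93769 in D_B12. The slope was 0.28 ± 0.062 (edgeR adjusted p = 0.0227). A transcript annotated as retained intron, Hspa8-208, took 47.2% to 57.6% of the Hspa8 counts, and 3 snoRNA genes (Snord14c, Snord14d and Snord14e) lie on the same strand within Hspa8. Of the 50-base words of its coding transcripts, 44.1% occur in transcripts of other genes, above all Gm15459 (40.3%).

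Hsp90aa1, the inducible Hsp90, and Hspb1, a small heat shock protein, were not called. Hsp90aa1 ran from 20211 to 29547 normalized counts, with a slope of 0.13 ± 0.038 (edgeR adjusted p = 0.0851). Hspb1 ran from 575 to 1600, with a slope of 0.21 ± 0.095 (edgeR adjusted p = 0.269).

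Cirbp moved the other way. Its normalized counts were 1114, 1026, 1139 and 1195 in ND_C, 778, 1611, 1252 and 1785 in ND_B12, 1871, 1330, 2140 and 1945 in D_C and 788, 797, 1760 and 1484 in D_B12. The 3 lowest libraries, ND_B12 1 and D_B12 1 and 2, were among the 4 highest in Bmal1 and in Hsph1. The slope was -0.40 ± 0.091 (edgeR adjusted p = 0.0266), with Pearson's r of -0.739 and Spearman's rho of -0.741. Rbm3, with 1771 to 2711 normalized counts, varied least among the members, with a coefficient of variation of 11.2% over the libraries, and had a slope of -0.07 ± 0.043 (edgeR adjusted p = 0.464).

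**Figure D1:**
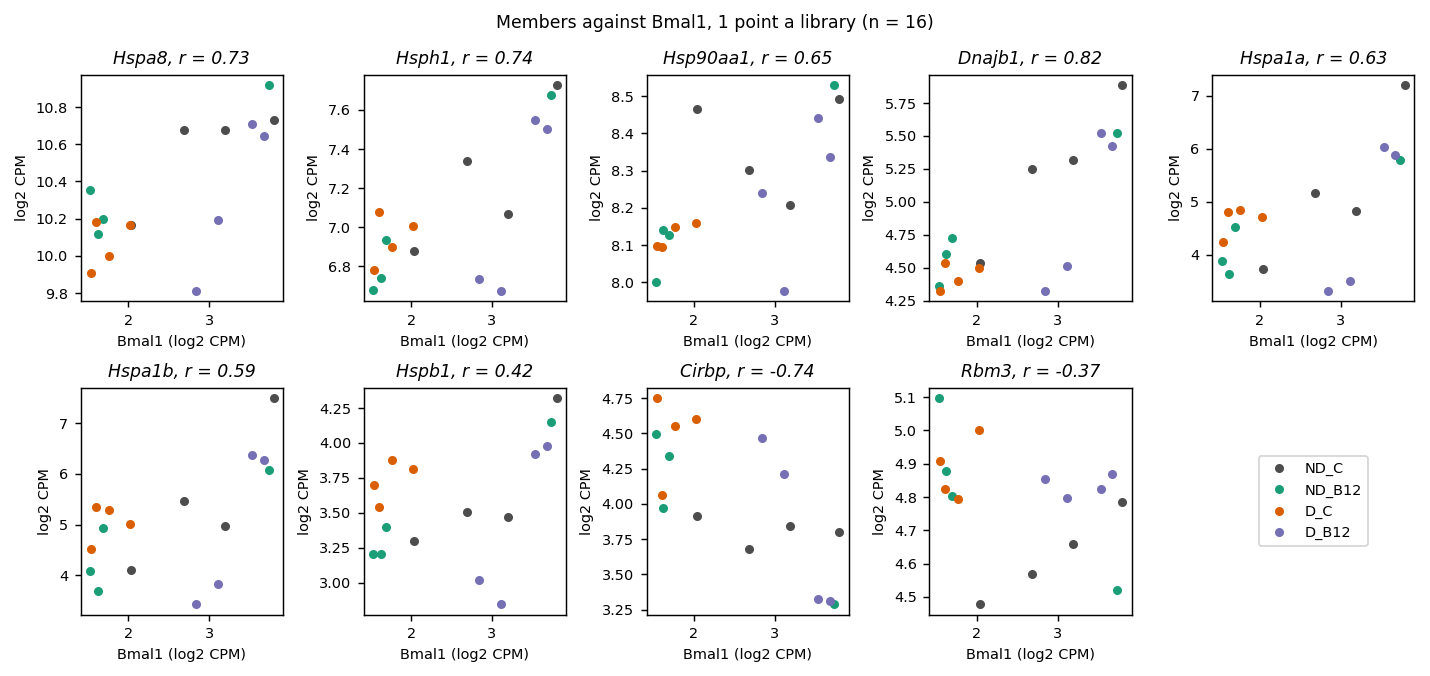
Log2 CPM of each member (vertical axis) against log2 CPM of Bmal1 (horizontal axis), 1 point for each of the 16 libraries, colored by labelled group, with Pearson's r above each panel. Points for Dnajb1 (r = 0.823) rise and points for Cirbp (r = -0.739) fall from left to right, and D_B12 3 and 4 lie low in most chaperone panels.

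Values of r were also taken within each set of 8, a split chosen after seeing the data. The sets were not tested against each other, and Bmal1 spanned 226 to 324 normalized counts in the low set and 513 to 1115 in the high one. Among the 8 libraries highest in Bmal1, r with Bmal1 lay between 0.595 for Hspa8 and 0.814 for Hspb1 over the 7 chaperones and was -0.636 for Cirbp. Among the 8 lowest it lay between 0.0352 for Hspa8 and 0.777 for Hsp90aa1, with -0.18 for Cirbp. Hsp90aa1 thus had a higher r in the low set than in the high one (0.629). By exact permutation, p in the high set ran from 0.0184 for Hspb1 to 0.111 for Hspa8 over the chaperones and was 0.0968 for Cirbp. For Hsp90aa1 exact permutation p was 0.000198 in the low set and 0.0917 in the high one. With each library taken as its deviation from its labelled group mean, r was 0.865 for Dnajb1, 0.84 for Hsph1, 0.818 for Hspb1 and -0.64 for Cirbp. Within D_C, however, Bmal1 spanned only 230 to 324 normalized counts. Within ND_B12 it was 1063 in ND_B12 1, which has another date, and 226 to 254 in the rest of that group.

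The calls rested on few libraries. Without ND_C 1, and likewise without D_B12 2, only Hsph1 and Dnajb1 were called, that is, 2 members, where 1.2% and 1.32% of genes were. Without ND_B12 1 or ND_B12 4 the count was 3, where 2.17% and 1.39% of genes were called. Cirbp lost its call without ND_C 1, ND_B12 1, ND_B12 4, D_C 3, D_B12 1 or D_B12 2, with slopes of -0.43 to -0.36 (edgeR adjusted p = 0.0502 to 0.0852). Hspa8 lost it without ND_C 1, ND_B12 1 or D_B12 2 (0.25 to 0.28), and Hspa1a without ND_C 1 (0.62), ND_B12 4 (0.85) or D_B12 2 (0.84). Hspa1b lost it without any 1 of 10 libraries, falling to 0.59 without ND_C 1, and Hsp90aa1 gained a call without ND_C 4 or D_B12 4 (0.15 each). With the group means beside Bmal1 in the fit, 4 members were called (Hsph1, Dnajb1, Hspa1a and Hspb1) where 0.205% of genes were. With the label date as a factor, 0 members were called by edgeR and 1 gene in all, and slopes kept their sign in 8 members, Rbm3 turning to 0.02.

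Within dates, 3 pairs and 1 set of 4 libraries shared a date. ND_C 4 and ND_B12 1, which differed by 1.70 log2 units of Bmal1, differed by 2.06 in Hspa1a, 0.98 in Dnajb1, 0.80 in Hsph1 and -0.62 in Cirbp, the higher minus the lower Bmal1 library. D_C 3 and 4 differed by 0.48 in Bmal1, 0.48 in Hspa1a, 0.17 in Dnajb1 and -0.15 in Cirbp. ND_C 2 and 3 differed by 0.51 in Bmal1 but by -0.33 in Hspa1a, -0.27 in Hsph1, 0.07 in Dnajb1 and 0.16 in Cirbp. The first 2 pairs went the way of the slopes for these genes, and the third did so for Dnajb1 alone among those given. The set of 4, ND_B12 2, 3 and 4 and D_C 1, was low in Bmal1 throughout (254, 244, 226 and 269 normalized counts). In it D_C 1, the highest in Bmal1, was highest in Hspa1a (2290) but also highest in Cirbp (1871) and lowest in Hspa8 (81652), against the slopes of those 2 genes.

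Other genes of the heat shock response moved with Bmal1 too. Of 22 listed genes, 8 rose and 0 fell by edgeR's test, with a median slope of 0.11, where 1.37% of all genes rose and 1.07% fell. Chordc1, a co-chaperone of Hsp90, had 0.30 ± 0.051 (edgeR adjusted p = 0.00611), Dnaja1, an Hsp40, 0.25 ± 0.046 (adjusted p = 0.00917), Cacybp 0.17 ± 0.036 (adjusted p = 0.0178) and Hspb8, a small heat shock protein, 0.39 ± 0.085 (adjusted p = 0.0206). Serpinh1, the collagen chaperone Hsp47, had 0.19 ± 0.042 (edgeR adjusted p = 0.0233) and Bag3, an Hsp70 co-chaperone, 0.25 ± 0.057 (adjusted p = 0.0267). Dnajb4 and Stip1 also passed, and the 14 others did not. These calls too rested on few libraries. Stip1 lost its call without any 1 of 8 libraries, Dnajb4 of 7, Bag3 of 5, Serpinh1 of 4 and Hspb8 of 2, and Cacybp without 1. Of 6 genes of temperature-sensitive splicing, Srsf5, a splicing factor, fell with a slope of -0.25 ± 0.038 (edgeR adjusted p = 0.00442) and the other 5 did not pass.

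Of 10 clock genes beside Bmal1, 2 rose with it and 6 fell, where 1.37% of all genes rose and 1.07% fell. Npas2, which can replace Clock, had a slope of 0.92 ± 0.10 (edgeR adjusted p = 0.000281). Dbp, an output gene, had -0.80 ± 0.055 (edgeR adjusted p = 7.93e-07), Cry2 -0.51 ± 0.052 (adjusted p = 0.000115), Per3 -0.45 ± 0.065 (adjusted p = 0.00279), Nr1d2 -0.21 ± 0.037 (adjusted p = 0.00692) and Per1 -0.41 ± 0.087 (adjusted p = 0.0175). Among 7 immediate early genes, whose RNA rises within minutes of handling or stress, Egr1 (-0.59 ± 0.12, edgeR adjusted p = 0.0155) and Ier2 (-0.28 ± 0.065, adjusted p = 0.0263) fell with Bmal1 and 0 rose, and their part in the result was not tested. Of the markers of macrophages, B, T and plasma cells, adipocytes, blood, adrenal gland and kidney, 0 were called by edgeR, and 1, Star, had an unadjusted p below 0.05 (0.0307). The skeletal muscle genes were near 0 and were not tested.

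**Figure D2:**
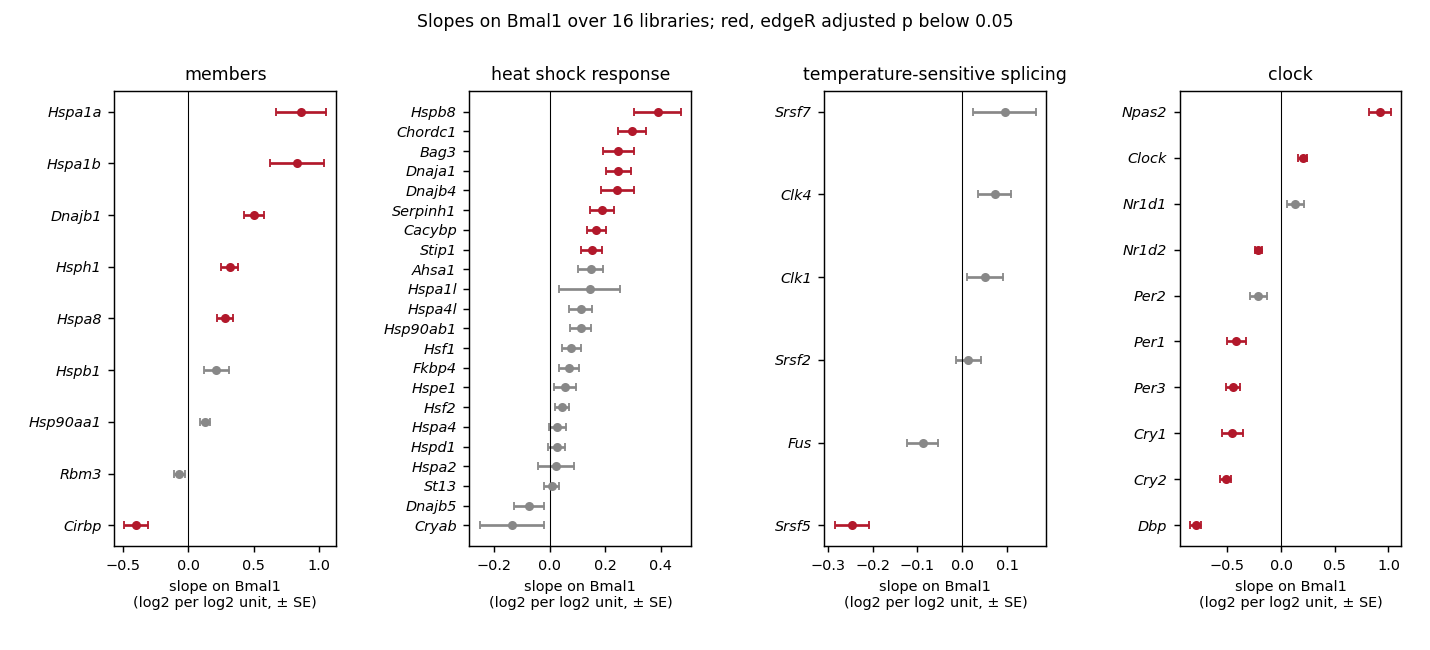
Slopes of log2 expression on log2 CPM of Bmal1 over 16 libraries (horizontal axis, log2 per log2 unit, bars are SE) for the members and 3 lists of genes, with an edgeR adjusted p below 0.05 in red. Hspa1a, Hspa1b and Dnajb1 lie farthest right among the members and Cirbp farthest left, and 20 of 22 heat shock response genes lie right of 0.

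The chaperones varied together from library to library. Of 5 pairs fixed for a test, Hspa8 and Hsph1 had r = 0.845 (permutation p = 8e-05) and rho = 0.721 (permutation p = 0.00236). Hsp90aa1 and Hsph1 had r = 0.795 (permutation p = 0.00039) and rho = 0.709 (permutation p = 0.00299). Hspa1a and Hspa1b had r = 0.994 and rho = 0.979 (permutation p = 1e-05 for both, the smallest that 100000 resamples can give), with the shared reads noted above.

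Cirbp and Rbm3 were less alike, with r = 0.54 (permutation p = 0.0312) and rho = 0.559 (permutation p = 0.0263), and r = 0.405 without the 2 libraries farthest from the median in Cirbp. Around the labelled group means r was 0.479 (permutation p = 0.0582). Cirbp and Hsph1 ran opposite, with r = -0.794 (permutation p = 0.00029) and rho = -0.703 (permutation p = 0.00295), and r = -0.743 without the 2 farthest. The p-values of these 5 pairs are not adjusted. Over all 21 pairs of chaperones r lay between 0.56 and 0.994.

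The genes most like Hsph1 over the 16 libraries, among 9429 with a mean CPM of at least 10, were Serpinh1 (r = 0.956), Gm7816 (r = 0.945), Gm15542 (r = 0.943), Hspa1a (r = 0.941) and Dnaja1 (r = 0.939). Those most like Cirbp were Chpf2 (r = 0.913), Zc3h6 (r = 0.904), Marchf7 (r = 0.898), Bcl2l11 (r = 0.898) and Etfbkmt (r = 0.885). These were picked for their r, which is a description.

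The group comparisons, as labelled, called 0 of 9 members by edgeR in each of 5 comparisons, and 0 by DESeq2. The comparisons asked what diabetes, B12 and their interaction changed. Of all genes, 0% were called for B12 in diabetic kidneys, 0% for B12 in non-diabetic kidneys, 1.66% for diabetes in untreated kidneys, 0.823% for diabetes in B12-treated kidneys and 0% for the interaction. DESeq2 called 2.64%, 0.0236%, 6.45%, 4.68% and 3.71% of genes in the same order.

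For diabetes in untreated kidneys (D_C against ND_C), 5 members had an unadjusted p below 0.05, 2 of them higher and 3 lower, where 18.6% of genes did, 9.31% higher and 9.28% lower. The members' median log2 difference was -0.34, against -0.0034 over all genes. Cirbp had a log2 difference of 0.70 ± 0.26 (edgeR adjusted p = 0.164), Rbm3 0.26 ± 0.096 (adjusted p = 0.16), Dnajb1 -0.88 ± 0.30 (adjusted p = 0.13), Hspa8 -0.51 ± 0.20 (adjusted p = 0.174) and Hsp90aa1 -0.25 ± 0.11 (adjusted p = 0.239). Cirbp averaged 1821 ± 347 normalized counts in D_C against 1119 ± 70.4 for ND_C (SD over 4 mice), and every D_C library lay above every ND_C library. Rbm3 had normalized counts of 2214, 2261, 2391 and 2568 in D_C against 2207, 1898, 2011 and 1771 in ND_C, also without overlap. Hsp90aa1 was lower in D_C without overlap, at 22306 ± 572 against 26463 ± 2468 normalized counts (SD over 4 mice). For these 3 members the exact permutation p was 0.0286, the smallest that 4 against 4 allows, and 9.44% of all genes did not overlap. Bmal1 differed by -1.33 ± 0.46 (edgeR adjusted p = 0.129). In a fit of the 2 compared groups alone, 1 member, Cirbp, passed (edgeR adjusted p = 0.0465), where 0.716% of genes did. With the label date as a covariate the genes called fell from 423 to 2, and the differences of Cirbp, Dnajb1 and Hspa8 were 0.04, -0.13 and -0.09 (adjusted p = 0.982, 0.956 and 0.954). Over all settings the adjusted p of Cirbp ran from 0.0465 to 0.982.

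Markers of other cells moved in the same comparison. The 3 B and plasma cell markers were all lower, with a median of -0.82, and 1 was called, Jchain, the joining chain of antibodies, at -1.96 ± 0.46 (edgeR adjusted p = 0.0468). Their sum was 864 to 3324 normalized counts in ND_C and 233 to 804 in D_C. The 3 T cell markers were also all lower, with a median of -0.82, 2 of them at an unadjusted p below 0.05, and summed to 144 to 339 against 85.3 to 193 normalized counts. The kidney marker Aqp2, the water channel of the collecting duct, rose by 1.69 ± 0.39 (edgeR adjusted p = 0.0436), and the immediate early gene Ier2 by 0.62 ± 0.14 (adjusted p = 0.0443), 1 of 6 and 1 of 7 in their lists. Of the 6 kidney markers 4 were lower, 2 of them at an unadjusted p below 0.05, and the median was -0.083. Of the 7 immediate early genes 4 were higher and 3 lower. The 3 macrophage and 3 blood markers were all lower, 1 of each at an unadjusted p below 0.05. The adrenal gene Star was higher at that level, by 0.40. Their part in the result was not tested.

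**Figure D3:**
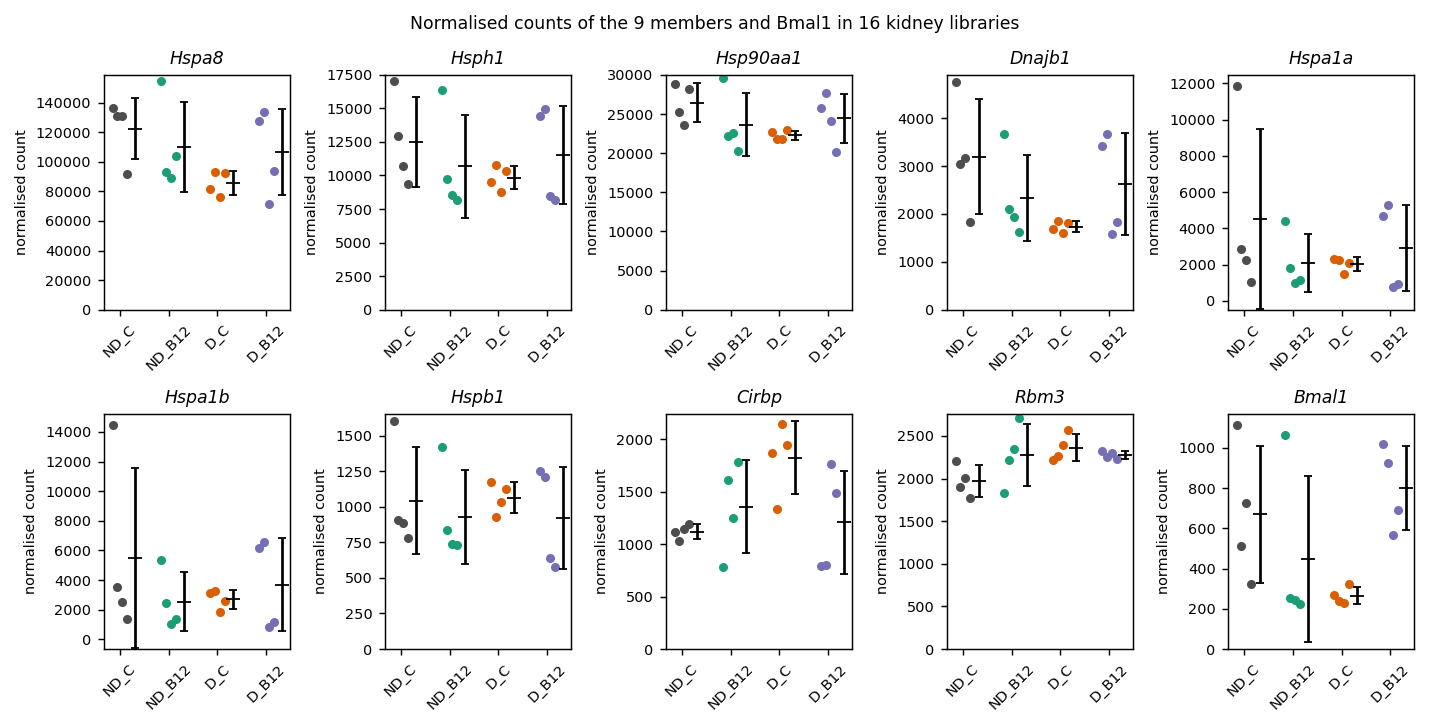
Normalized counts (vertical axis) of the 9 members and Bmal1 in the 4 labelled groups, 1 point a library, with the group mean and SD as black bars beside the points. The bar of Hspa1a and Hspa1b in ND_C reaches below 0 because 1 library, ND_C 1, holds 11864 and 14466 normalized counts. D_C points lie close together for Dnajb1 (1596 to 1854).

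B12 in diabetic kidneys (D_B12 against D_C) gave 1 member with an unadjusted p below 0.05, where 13.6% of genes had one. That was Cirbp at -0.59 ± 0.26 (edgeR adjusted p = 0.336), with 1207 ± 492 normalized counts in D_B12. Dnajb1 differed by 0.60 ± 0.30 (edgeR adjusted p = 0.4) and Hsph1 by 0.23 ± 0.24 (adjusted p = 0.74). The D_B12 libraries fell into 2 pairs, since numbers 1 and 2 were above numbers 3 and 4 in Dnajb1, Hsph1, Hspa8 and Hspa1a and below them in Cirbp. Numbers 1 and 2 are dated 9 and 24 October and numbers 3 and 4 are dated 16 and 26 November, so this split and date cannot be told apart. All 9 members overlapped between the groups, where 6.58% of genes did not overlap. Bmal1 was higher by 1.59 ± 0.46 (edgeR adjusted p = 0.151).

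B12 in non-diabetic kidneys (ND_B12 against ND_C) gave 1 member with an unadjusted p below 0.05, Rbm3 at 0.21 ± 0.096 (edgeR adjusted p = 0.639), where 7.62% of genes had one. Diabetes in B12-treated kidneys gave 0 members at that level, where 17% of genes had one, and the largest difference was 0.54 ± 0.73 for Hspa1b (edgeR adjusted p = 0.76). In the interaction, with 16.1% of genes at an unadjusted p below 0.05, Dnajb1 had 1.05 ± 0.43 (edgeR adjusted p = 0.237) and Cirbp -0.88 ± 0.37 (adjusted p = 0.257). With the label date as a covariate both passed, at 1.58 (edgeR adjusted p = 0.0496) and -1.55 (adjusted p = 0.0339), where 2.96% of genes did. Without the date 0% of genes passed. The groups overlap little in date, so that fit cannot separate date from group.

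Of the heat shock response, splicing and clock lists, 2 genes passed edgeR's test in a group comparison, both for diabetes in untreated kidneys. They were the heat shock response gene Hspe1, the Hsp10 of mitochondria, which fell by 0.29 ± 0.071 (edgeR adjusted p = 0.0492, 1 of 22), and the clock gene Cry2, which rose by 0.89 ± 0.22 (adjusted p = 0.04996, 1 of 10). There 11 of the 22 heat shock response genes were lower and 1 higher at an unadjusted p below 0.05, with a median of -0.23. Of all genes, 9.28% were lower and 9.31% higher at that level. At the same level 2 clock genes were higher and 7 lower of 10 for B12 in diabetic kidneys (median -0.49), where 6.44% of all genes were higher and 7.21% lower. In the interaction 2 clock genes were higher and 7 lower (median -0.86), and 7 of 22 heat shock response genes were higher and 0 lower (median 0.22). There 8.01% of all genes were higher and 8.1% lower. Hspe1 lost its call in 17 of 23 alternative settings and Cry2 in 13 of 23. In the other comparisons 0 genes of these 3 lists passed by edgeR, and the 3 genes of smallest p in each list are given as values. For B12 in diabetic kidneys these were Cryab (-0.54), Hsf2 (0.14) and Hsf1 (0.19), Srsf5 (-0.31), Clk1 (0.19) and Clk4 (0.13), and Nr1d2 (-0.39), Per3 (-0.80) and Cry1 (-0.89). For B12 in non-diabetic kidneys they were Hspb8 (-0.57), Dnaja1 (-0.27) and Cacybp (-0.18), Clk4 (-0.22), Srsf2 (-0.10) and Clk1 (-0.06), and Per1 (0.75), Cry2 (0.62) and Cry1 (0.68).

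Of the splicing list, Srsf7 (-0.42), Clk4 (-0.17) and Clk1 (-0.16) had the smallest p for diabetes in untreated kidneys. For diabetes in B12-treated kidneys they were St13 (-0.17), Hspd1 (-0.11) and Fkbp4 (-0.12), Srsf2 (0.14), Clk4 (0.19) and Srsf7 (-0.26), and Per3 (-0.76), Nr1d2 (-0.37) and Dbp (-1.12). For the interaction they were Hspb8 (0.96), Hsf2 (0.21) and Chordc1 (0.58), Clk4 (0.36), Srsf2 (0.19) and Clk1 (0.25), and Cry1 (-1.57), Cry2 (-1.36) and Nr1d2 (-0.60). All these are log2 differences. Of the marker lists, Jchain was also lower for diabetes in B12-treated kidneys, at -2.23 ± 0.47 (edgeR adjusted p = 0.0423).

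**Figure D4:**
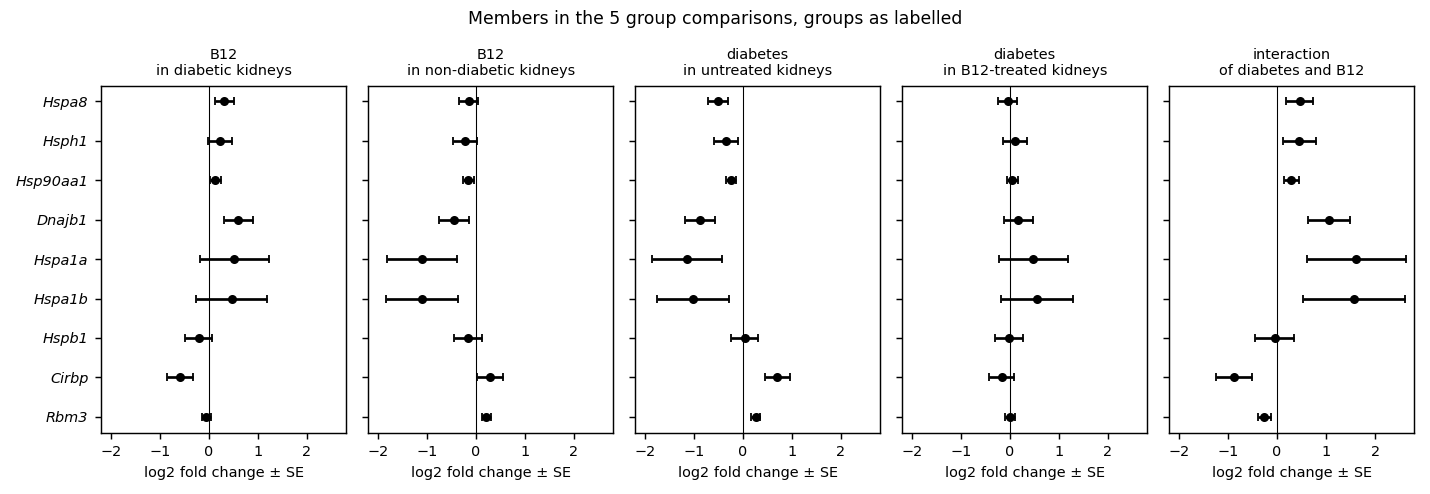
Log2 fold changes (horizontal axis, bars are SE) of the 9 members in the 5 group comparisons, groups as labelled. Hspa1a and Hspa1b have the longest bars, and in the panel of diabetes in untreated kidneys Cirbp (0.70) and Dnajb1 (-0.88) lie on opposite sides of 0.

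Among member transcripts, 0 were called by edgeR in the 5 group comparisons, where 0% of 66503 transcripts were called in each. With Bmal1, 1 member transcript was called, the main coding transcript of Dnajb1, with a slope of 0.49 ± 0.083 (edgeR adjusted p = 0.0367), where 0.0887% of transcripts were. The main coding transcript of Cirbp, Cirbp-202, had -0.48 ± 0.12 (edgeR adjusted p = 0.138) and held 68.0% to 90.0% of the Cirbp counts. Its share ran from 68.5% in D_B12 2 to 90.0% in D_C 4 among the diabetic libraries.

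The transcripts of Rbm3 divided its counts unevenly between libraries. Rbm3-207, annotated as a target of nonsense-mediated decay, held 26.4%, 24.5%, 28.6% and 19.9% of the Rbm3 counts in ND_C, 26.2%, 32.6%, 35.8% and 0% in ND_B12, 21.7%, 0.873%, 0% and 0.669% in D_C and 24.6%, 27.8%, 27.8% and 21.4% in D_B12. It was thus near or at 0 in 4 libraries, ND_B12 4 and D_C 2, 3 and 4, and between 19.9% and 35.8% in the other 12. At the gene level ND_B12 4, D_C 4 and D_C 3 were the 3 highest libraries in Rbm3, at 2711, 2568 and 2391 normalized counts. Those 4 libraries are also the set that matched the supplementary means under the heading of B12-treated diabetic mice. The coding Rbm3-204 held 44.9% to 57.0% in those 4 libraries and 17.5% to 37.3% in the other 12. This split was noticed after the values were seen and was not tested, and StringTie's division of reads among overlapping transcripts is an estimate, with Rbm3os on the opposite strand.

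**Figure D5:**
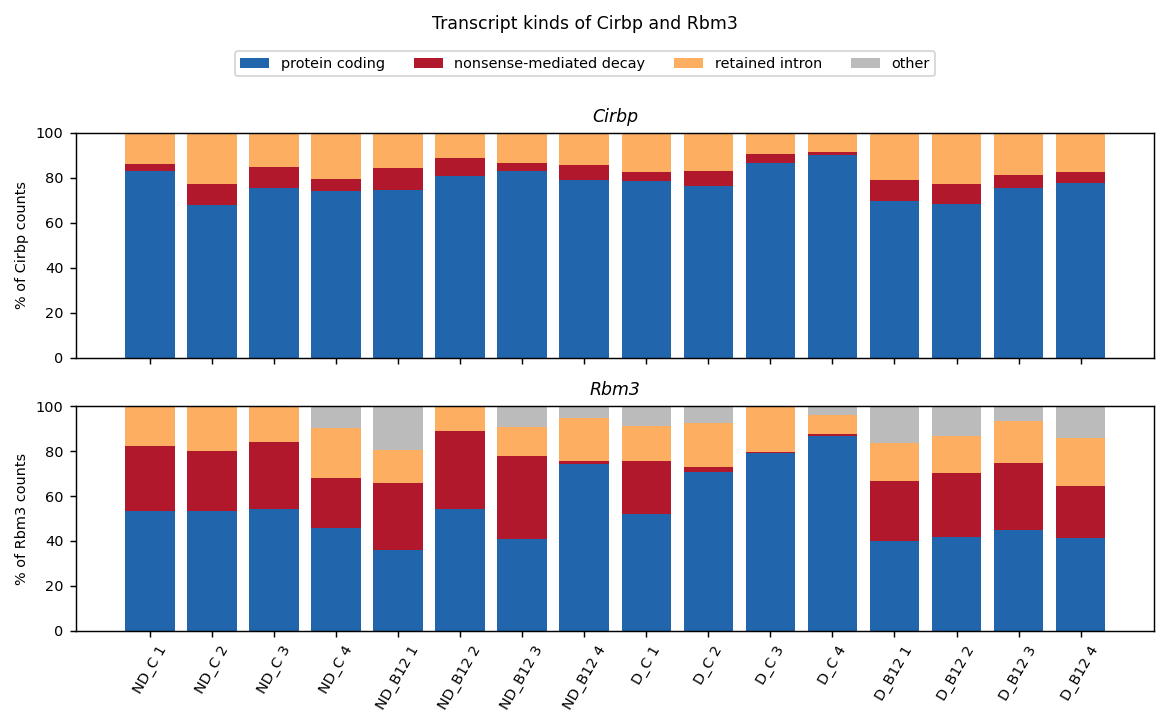
Share of the estimated counts of Cirbp (top) and Rbm3 (bottom) by annotated kind of transcript (vertical axis, percent) in each of the 16 libraries. The nonsense-mediated decay share of Rbm3 is thin in ND_B12 4 and D_C 2, 3 and 4.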

How the data were processed

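RNA sequencing of mouse kidney gave paired reads of 50 bases. The authors aligned them with STAR to GRCm39 (GENCODE vM35) and deposited estimated counts per gene and per transcript from StringTie, already whole numbers. The submitters' processing notes also name bcl2fastq 2.20.0. Genes and transcripts with at least 100 counts over 16 libraries were tested in R 4.3.3 with edgeR 4.0.16 (TMM, glmQLFit, glmQLFTest), with a mean per labelled group or the log2 CPM of Bmal1 (prior count 2) as a covariate, two-sided, adjusted at 0.05. DESeq2 1.42.0 was an alternative. Group values are mean ± SD and slopes and log2 fold changes are ± SE. Permutations used scipy 1.17.1. The tests were tried on simulated data.

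The members and lists were chosen with earlier results of these data known. Named were the members, Bmal1, listed genes with an adjusted p below 0.05 (at most 6 per list and comparison, otherwise the 3 of smallest p) and the 5 genes most like Hsph1 and Cirbp. Replicate numbers did not pair the libraries (same-number correlations -0.183 to 0.168). Each library is 1 biological replicate by the labels. Positions and transcript kinds are from GENCODE vM39. Strandedness of the counting is not given in the sources used here.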

Additional observations from a re-analysis of the deposited data

Results flagged for a closer look

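Of 40 sets of 4 libraries (9 members and Bmal1 in 4 groups), 2 held a library set apart from the other 3 by Dixon's test at 95%, and chance flags about 1 in 20. Hspa8 was low in ND_C 4, at 91510 normalized counts against 130660 to 136146 in the other ND_C libraries. Bmal1 was high in ND_B12 1, at 1063 normalized counts against 226 to 254 in the other ND_B12 libraries.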

How the results depend on the processing

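Of 9 members, the 6 called with Bmal1, where 2.44% of all genes were called, became 1 with the replicate block, where 0.701% were. With the label date as a factor 0 members were called, where 0.00394% of genes were. That alternative was chosen after seeing the data and leaves few libraries per date. When 1 library was left out, 2 to 7 members were called, where 1.2% to 2.85% of genes were. In the fit of compared groups alone, 1 member passed for diabetes in untreated kidneys, where 0.716% of genes did. With the label date as a covariate 2 passed for the interaction, where 2.96% of genes did. The cause was not tested. Slopes that changed sign with the date factor were those of Rbm3 (0.024), Per1 (0.11) and Cry1 (0.042), and within the 8 highest Bmal1 libraries, a split also chosen after seeing the data, r of Rbm3 was 0.119. Over all settings the slope of Dnajb1 ran from 0.44 to 0.61, of Hsph1 from 0.23 to 0.47, of Hspa8 from 0.25 to 0.39, of Hspa1a from 0.51 to 1.41 and of Cirbp from -0.43 to -0.30. The other counts of called members were within 1.5 times the main one. The replicate numbers share nothing but a number (5 of 16 libraries correlated best with their own number), and the replicate block changed no call in the group comparisons of the members.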
